A study of Mus musculus with 6 samples.

Results

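Immediate-early genes are the first to be transcribed when a neuron fires, without the need for new protein synthesis. The set described here is Fos, Fosb, Fosl2, Junb, Egr1, Nr4a1, Nr4a2, Nr4a3, Arc and Npas4. These 10 genes were chosen by name, with earlier results of these data known. Their values came from the events that the deposited expression tables assign to them, out of 32348 gene identifiers. Of the 10, 9 had a mean of at least 0.5 FPKM (fragments normalized to transcript length and library size) and were among the 11368 genes tested. The exception was Junb. RNA came from tissue labelled hippocampus of male C57BL/6 mice aged 14 months. The treated group received dihydrotestosterone (DHT), an androgen, under the skin each morning for 14 days, and the control group received corn oil in the same way. There were 3 libraries per group, numbered here 1 to 3 for naming only. The labels do not state whether a library came from a single mouse, so how much of the spread behind each p-value is technical is not known.

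As background, calcium entry and growth factor signalling activate kinases that phosphorylate CREB and the partners of serum response factor, and these switch the genes on within minutes. Fos, Fosb, Fosl2 and Junb encode subunits of the dimeric AP-1 transcription factor. Egr1 encodes a zinc finger factor, Nr4a1, Nr4a2 and Nr4a3 encode orphan nuclear receptors, and Npas4 encodes a factor that is induced mainly by neuronal calcium entry. Arc encodes a synaptic protein that takes part in the removal of AMPA receptors. In the hippocampus these transcripts are used as marks of recently active neurons, and their level depends on what the animal experienced shortly before death.

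The promoters of 8 of the 10 genes were found in the RefSeq table (build GRCm38.p6), each as 250 bases before to 50 bases after the start site. Those of Egr1 and Arc were missing. The half-site of the cAMP response element, TGACG on either strand, lay in 7 of these 8 windows, while 20.8% of the 32851 windows in the table held it. Overlapping matches were counted, and G and C made up 58.7% to 81.7% of the 8 windows against a median of 52.7% in the table. The whole element, TGACGTCA, was in 0 of the 8 (1.79% of all windows), as were the CArG box (1.63%), the AP-1 sites TGACTCA and TGAGTCA (5.20%), the EGR site GCGTGGGCG (0.612%) and the NR4A site AAAGGTCA (1.51%). A match describes the letters in the window and does not show binding. Sites outside the windows were not searched, so a count of 0 does not mean that a gene lacks the site. The windows of 5 genes are shown because the text below returns to these genes. Nr4a1 and Nr4a2 followed each other over the libraries, Fos and Fosl2 were highest in the same library, and Npas4 followed neither. Capitals mark the half-sites, of which Nr4a1 and Nr4a2 had 4 each, Fos and Npas4 2 each, and Fosl2 0. Nr4a3, whose window is not shown and which did not follow Nr4a1 and Nr4a2, also had 4. A link between these sites and the expression values was not tested.
Fos (GRCm38.p6, chr12:85473640-85473939, plus strand): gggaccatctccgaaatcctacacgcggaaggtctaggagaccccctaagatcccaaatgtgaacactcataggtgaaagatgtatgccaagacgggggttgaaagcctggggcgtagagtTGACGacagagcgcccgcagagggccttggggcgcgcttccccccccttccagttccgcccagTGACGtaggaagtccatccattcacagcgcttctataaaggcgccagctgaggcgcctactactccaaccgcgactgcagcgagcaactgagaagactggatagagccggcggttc
Fosl2 (GRCm38.p6, chr5:32136222-32136521, plus strand): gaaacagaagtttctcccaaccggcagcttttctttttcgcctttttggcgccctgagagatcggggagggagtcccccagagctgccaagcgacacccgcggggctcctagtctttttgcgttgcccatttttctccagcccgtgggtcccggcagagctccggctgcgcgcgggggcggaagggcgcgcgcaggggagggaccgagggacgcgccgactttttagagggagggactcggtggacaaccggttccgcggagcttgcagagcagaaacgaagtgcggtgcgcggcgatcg
Nr4a1 (GRCm38.p6, chr15:101266596-101266895, plus strand): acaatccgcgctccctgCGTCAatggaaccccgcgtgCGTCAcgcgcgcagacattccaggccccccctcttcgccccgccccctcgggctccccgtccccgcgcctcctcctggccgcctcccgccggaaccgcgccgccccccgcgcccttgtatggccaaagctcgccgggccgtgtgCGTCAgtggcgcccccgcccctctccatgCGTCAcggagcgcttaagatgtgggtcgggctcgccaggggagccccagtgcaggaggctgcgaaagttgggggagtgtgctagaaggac
Nr4a2 (GRCm38.p6, chr2:57123954-57124253, minus strand): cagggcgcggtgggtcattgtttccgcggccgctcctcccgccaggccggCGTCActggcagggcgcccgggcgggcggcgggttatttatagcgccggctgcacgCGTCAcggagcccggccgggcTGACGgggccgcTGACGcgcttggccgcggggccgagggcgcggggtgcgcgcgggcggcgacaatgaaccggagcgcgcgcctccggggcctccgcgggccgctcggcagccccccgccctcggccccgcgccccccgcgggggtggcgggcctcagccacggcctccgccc
Npas4 (GRCm38.p6, chr19:4989922-4990221, minus strand): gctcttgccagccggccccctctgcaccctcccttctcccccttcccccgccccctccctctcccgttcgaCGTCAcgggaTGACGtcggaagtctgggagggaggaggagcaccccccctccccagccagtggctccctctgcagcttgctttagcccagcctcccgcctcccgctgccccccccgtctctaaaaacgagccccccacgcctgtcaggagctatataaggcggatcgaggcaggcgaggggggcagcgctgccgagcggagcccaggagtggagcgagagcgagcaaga
Counted from the start site, the nearest half-site began at position -66 in Fos and at -40 in Nr4a1, where it read on the opposite strand.

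The libraries came from 143 to 177 M (mega) mapped reads. Their marker genes did not all match the labelled tissue. Of 9 striatal markers 8 had a mean over 5 FPKM, led by the enkephalin gene Penk at 120 FPKM and Ppp1r1b at 71.0 FPKM (means over the 6 libraries), and Drd1 was listed at 0. Of 12 hippocampal markers 5 reached a mean of 0.5 FPKM, led by Zbtb20 at 10.5 FPKM and Wfs1 at 8.57 FPKM. The dentate gyrus marker C1ql2 stayed at or below 0.297 FPKM in every library, and Neurod2, Dsp, Cpne7 and Lct were listed at 0. All 9 cortical and thalamic markers reached 0.5 FPKM. An exact 0 in these tables can be a failed estimate. In bulk tissue, fewer cells of a type and less RNA per cell cannot be told apart.

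Per unit of transcript length, Egr1 and Arc were the most abundant of the set. Egr1 had 14.6 ± 2.69 FPKM and Arc 12.1 ± 3.84 FPKM (SD over all 6 libraries), above 87.9% and 84.7% of the tested genes. Nr4a1 followed at 5.93 ± 1.24 FPKM and Nr4a2 at 2.98 ± 0.328 FPKM. Below them came Fosl2 at 2.33 ± 0.610, Fos at 2.11 ± 0.946, Npas4 at 1.69 ± 0.372 and Nr4a3 at 1.45 ± 0.506 FPKM. Fosb was lowest at 0.771 ± 0.196 FPKM, above 6.92% of the tested genes. The order was firm in 3 places: Arc exceeded Nr4a1, Nr4a1 exceeded Nr4a2, and Nr4a3 exceeded Fosb in 6 of 6 libraries, with no overlap of their ranges. Other neighbours overlapped: Egr1 exceeded Arc and Nr4a2 exceeded Fosl2 in 5 of 6, Fosl2 exceeded Fos and Npas4 exceeded Nr4a3 in 4 of 6, and Fos exceeded Npas4 in 3 of 6.

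Between the DHT and oil groups, 8 of the 9 tested genes had a higher mean log2 level in DHT libraries and Fosb had a lower one, while 63.6% of all tested genes were higher. With each library centred on its median log2 level the count was 7 of 9, against 51.4% of all tested genes. By limma, 0 of the 9 fell under the adjusted threshold of 0.05, as 0.0176% of the tested genes did. At an unadjusted p under 0.05 there were 2, Nr4a1 and Fosl2, both higher in DHT, where 5.79% of the tested genes were called in that direction and 7.34% in either. With centred libraries Nr4a1 alone was left, against 3.16%. The median log2 fold change of the 9 was 0.31, beside 0.07 over all tested genes, and 0.25 beside 0.01 with centred libraries. All fold changes are differences of log2(FPKM + 0.5), which understate those of low genes. Without DHT library 1 the count of higher genes was 6 of 9 and their median 0.12, beside 0.08 over all tested genes, or 0.05 beside 0.01 with centred libraries. Without oil library 1 the median was 0.19.

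**Figure D1:**
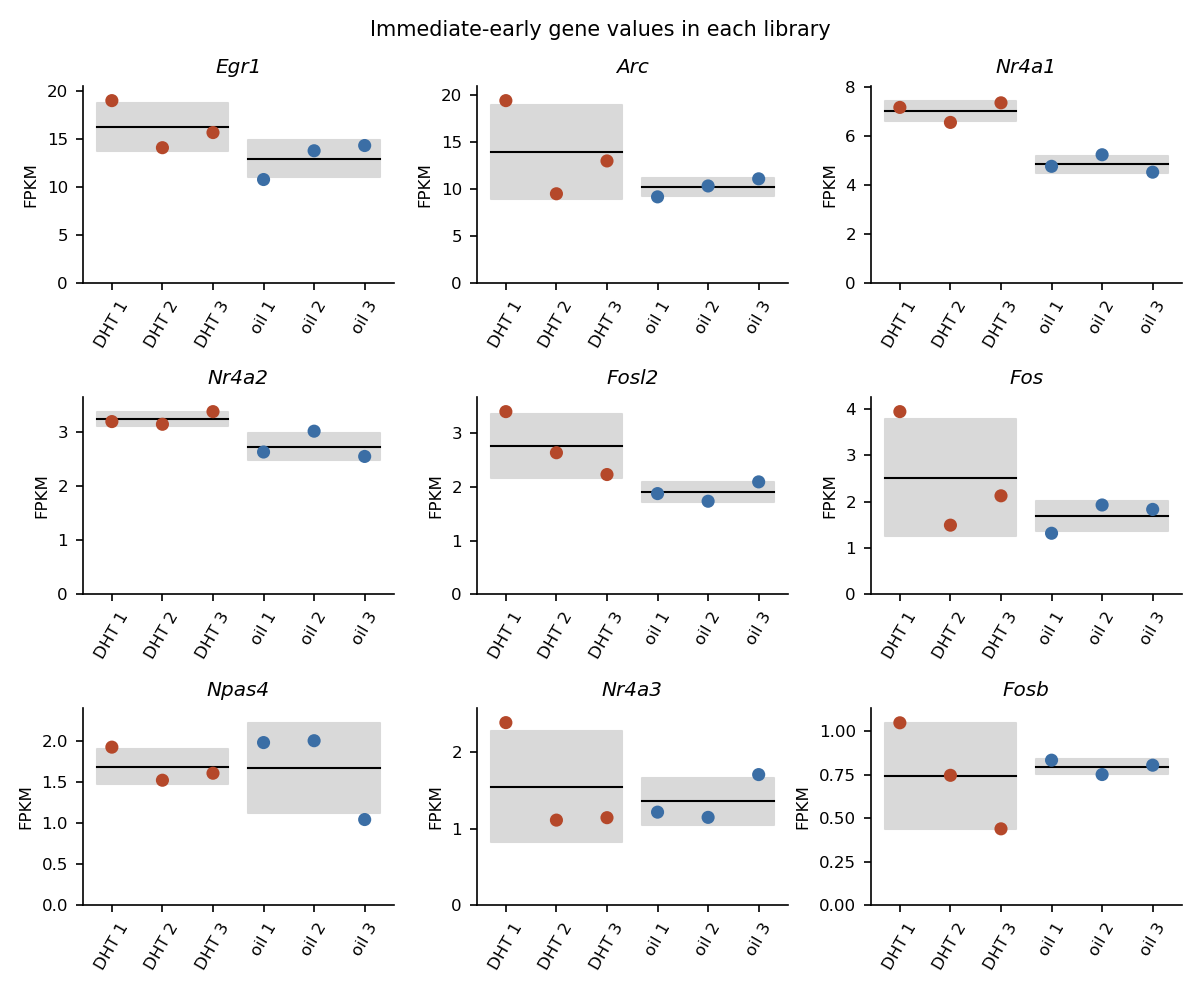
Gene value in FPKM (vertical axis, from 0) of the 9 measured immediate-early genes in DHT libraries (red) and oil libraries (blue); black lines are group means and grey bands ± 1 SD (n = 3). Nr4a1 in DHT libraries sits between 6.55 and 7.35 FPKM, above all oil libraries, whereas Arc, Fos and Nr4a3 are set apart by DHT library 1.

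Among the nuclear receptors, Nr4a1 (also called Nur77) separated the groups most clearly. Its values were 7.17, 6.55 and 7.35 FPKM in DHT libraries 1 to 3 and 4.77, 5.24 and 4.53 FPKM in oil libraries 1 to 3. Every DHT library was above every oil library, as was the case for 12% of all tested genes, and the separation held with centred libraries, where 6.97% did so. The group means were 7.02 ± 0.417 and 4.84 ± 0.361 FPKM (SD, n = 3), a log2 fold change of 0.49 (SE 0.11, limma adjusted p = 0.652). Leaving out 1 library moved that fold change between 0.45 and 0.55.

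Nr4a2 (Nurr1), best known as a factor of midbrain dopamine neurons, measured 3.19, 3.14 and 3.37 FPKM with DHT, compared with 2.63, 3.01 and 2.54 FPKM with oil. The groups again did not overlap, as in 12% of all tested genes. The nearest values lay 3.14 against 3.01, and the groups did overlap once libraries were centred. Its log2 fold change was 0.21 (SE 0.11, limma adjusted p = 0.679). Nr4a3 (Nor1) measured 2.38, 1.11 and 1.14 FPKM with DHT, compared with 1.21, 1.14 and 1.70 FPKM with oil. DHT library 1 was its highest library and DHT libraries 2 and 3 its lowest, so the log2 fold change of 0.10 (SE 0.26, adjusted p = 0.944 by limma) became -0.18 without DHT library 1.

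Of the AP-1 subunits, Fosl2 (Fra-2) was higher in every DHT library, at 3.40, 2.63 and 2.23 FPKM, than in any oil library, at 1.87, 1.73 and 2.09 FPKM. Of all tested genes, 12% were separated in that direction, and of the 9 genes here 3 were (Nr4a1, Nr4a2 and Fosl2). For Fosl2 the gap between DHT library 3 and oil library 3 was small, and with centred libraries the groups overlapped. Its log2 fold change was 0.43 (SE 0.16, limma adjusted p = 0.658) and 0.29 without DHT library 1. Fos, the classic marker of recent firing, measured 3.94, 1.49 and 2.13 FPKM with DHT, compared with 1.32, 1.93 and 1.83 FPKM with oil. DHT library 1 was far above the rest, while DHT library 2 lay below 2 of the 3 oil libraries. Its log2 fold change of 0.39 (SE 0.30, limma adjusted p = 0.755) was 0.07 without DHT library 1, and 0.65 without DHT library 2. Fosb stood at 1.05, 0.747 and 0.440 FPKM against 0.834, 0.751 and 0.805 FPKM, with a log2 fold change of -0.09 (SE 0.21, limma adjusted p = 0.928). Its highest and its lowest values were both in the DHT group. The highest came from last-exon sums. By first-exon events Fosb was highest in oil library 3, at 0.805 FPKM, and DHT library 1 held 0.579 FPKM.

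Junb has no value here that can be read as its mRNA. RefSeq places Junb on the minus strand of chromosome 8 (84976909 to 84978748), and the 1 locus that carries its identifier lies on the plus strand (84977623 to 84978236). That locus held 0.168 FPKM in DHT library 3 and was listed at 0 in the other libraries. Likewise Jun, Jund, Ier2 and Ier5, genes of the same rapid class, had no identifier among the loci, and are not analysed here. Arc also had a second locus on the opposite strand (chromosome 15, 74660526 to 74670014) beside its own (74669083 to 74672570). It held 0.260 FPKM in DHT library 2 and 0 elsewhere, and without it the log2 fold change of Arc was 0.37 instead of 0.38.

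Egr1, a zinc finger factor needed for lasting synaptic potentiation, measured 19.0, 14.1 and 15.7 FPKM with DHT, compared with 10.8, 13.8 and 14.4 FPKM with oil. DHT library 2 and oil library 3 overlapped by a small margin. The log2 fold change was 0.31 (SE 0.16, limma adjusted p = 0.672), 0.20 without DHT library 1 and 0.19 without oil library 1. Arc, whose RNA travels into dendrites, was at 19.4, 9.53 and 13.0 FPKM against 9.20, 10.4 and 11.1 FPKM. DHT library 1 was again the highest and DHT library 2 lay within the oil range. Its log2 fold change of 0.38 (SE 0.24, limma adjusted p = 0.718) was 0.12 without DHT library 1 and 0.62 without DHT library 2. Npas4 was at 1.93, 1.53 and 1.61 FPKM against 1.99, 2.01 and 1.05 FPKM, a log2 fold change of 0.04 (SE 0.21, limma adjusted p = 0.980). For this gene oil libraries 1 and 2 were the highest and oil library 3 the lowest. With last-exon sums alone Npas4 had 1.35 FPKM in oil library 1, and its log2 fold change was 0.18.

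**Figure D2:**
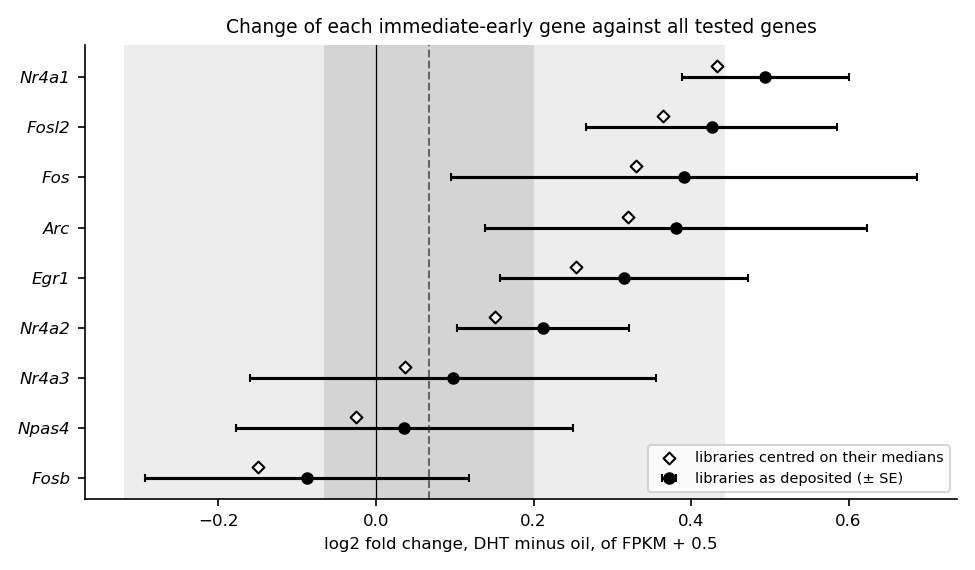
Log2 fold change (DHT minus oil, horizontal axis) of each gene with its SE (black) and with libraries centred (open diamonds), over the spread of all 11368 tested genes (dark band 25th to 75th percentile, light band 5th to 95th, dashed line the median of 0.07). Nr4a1 at 0.49 lies beyond the 95th percentile of 0.44, and Fosb at -0.09 is the only one of the 9 left of 0 in the uncentred values.

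One library carried much of the signal. DHT library 1 was the highest of the 6 for 6 of the 9 genes (Egr1, Arc, Fosl2, Fos, Nr4a3 and Fosb) and the lowest for 0, and it was the highest for 21.1% of all tested genes. For Fosb this rested on last-exon sums and did not hold for first-exon events. With centred libraries it was still the highest for 6 of the 9, beside 20.1% of all tested genes. The mean standardized log2 level of the 9 genes was 1.35 in DHT library 1, -0.11 and 0.07 in DHT libraries 2 and 3, and -0.61, -0.23 and -0.47 in the oil libraries. DHT library 1 also had the lowest sum of striatal markers, 185 FPKM against 266 to 349 FPKM in the other libraries, and the lowest sum of hippocampal markers, 15.4 FPKM against 19.7 to 39.1 FPKM. Of the measured hippocampal markers, Prox1 and Wfs1 were lowest in DHT library 1. Zbtb20 was lowest in oil library 1, Nr3c2 in oil library 3 and Fibcd1 in DHT library 3. In DHT library 1 the sum of cortical and thalamic markers was the highest, 100.2 FPKM against 60.3 to 85.1 FPKM, as was its sum of excitatory neuron markers, 469 FPKM against 234 to 440 FPKM. Camk2a alone held 309 FPKM of that excitatory sum, against 96.5 to 271 FPKM in the other libraries. Of the 4 measured excitatory neuron markers, 2 were highest in DHT library 1. The sum of pan-neuronal markers in DHT library 1 was the lowest, 489 FPKM against 589 to 698 FPKM. Snap25 weighed heavily in it, with 150 FPKM in DHT library 1 and 295 to 376 FPKM in the others. Of the 4 measured pan-neuronal markers, 1 was highest in DHT library 1. Between the groups, 4 of 4 measured excitatory neuron markers were higher in DHT, with a median log2 fold change of 0.48 (0.42 centred), and so were 4 of 4 measured blood markers, with a median of 0.74 (0.67 centred). By group these sums ran from 185 to 349 FPKM in DHT and 266 to 297 FPKM in oil for striatal markers, and from 79.2 to 100.2 FPKM and 60.3 to 79.4 FPKM for cortical and thalamic markers. DHT library 1 also had the most mapped reads, 177 M. The part of tissue makeup, blood or depth in the immediate-early values was not tested.

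**Figure D3:**
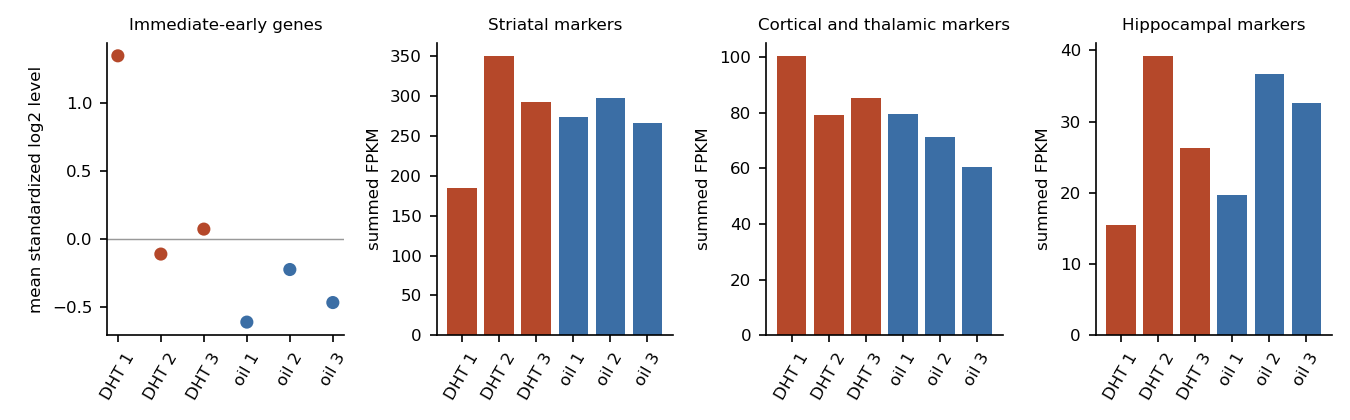
Left, the mean standardized log2 level of the 9 immediate-early genes in each library; right, the summed FPKM of striatal, cortical and thalamic, and hippocampal markers (red DHT, blue oil). DHT library 1, at 1.35 on the left, has the lowest striatal sum (185 FPKM) and the highest cortical and thalamic sum (100.2 FPKM).

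The genes were next compared with each other across the 6 libraries, on log2(FPKM + 0.5). Over the 36 pairs the median Pearson r was 0.48, with 31 pairs above 0, while over all pairs of tested genes the median was 0.04 and 52.7% were above 0. Those pairs share libraries and are not independent. After subtraction of each group's mean the median was 0.42 with 27 pairs above 0, beside 0.007 and 50.5% over all pairs of tested genes. Without DHT library 1 the median was 0.10 with 20 of 36 above 0, beside 0.05 and 53.0% over all pairs of tested genes.

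By exact two-sided permutation of the libraries, 4 pairs had an unadjusted p under 0.05 and 0 passed after Benjamini-Hochberg adjustment over the 36. The smallest p that the 720 pairings can give is 0.00139, so that a pair alone could reach an adjusted p of 0.05 but not fall below it. Arc and Fos had the highest r over the 6 libraries, 0.98 (exact permutation p = 0.00278, adjusted 0.05) and Spearman's rho = 0.94 (exact permutation p = 0.0167, adjusted 0.2). Without the libraries farthest from the median of Arc, DHT 1 and DHT 3, r was 0.89, and within groups 0.98. Egr1 stood with both, at r = 0.90 with Arc (exact permutation p = 0.00833, adjusted 0.1; rho = 0.94, p = 0.0167) and 0.91 with Fos (exact permutation p = 0.0139, adjusted 0.125; rho = 0.83, p = 0.0583). Without DHT library 1 and oil library 1 these were 0.89 for Arc and 0.59 for Fos.

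Nr4a1 and Nr4a2 formed the other close pair, with r = 0.94 (exact permutation p = 0.00139, adjusted 0.05) and the same order of libraries throughout, rho = 1 (exact permutation p = 0.00278, adjusted 0.1). Without DHT library 3 and oil library 3 their r was 0.88, without DHT library 1 it was 0.95, and within groups it was 0.90. The third receptor, Nr4a3, did not follow them: its r was 0.13 with Nr4a1 and -0.08 with Nr4a2, against 0.81 with both Arc and Fos (exact permutation p = 0.0542 and 0.0903, adjusted 0.378 each). Without DHT library 1, Nr4a3 with Fos was 0.11 and with Arc 0.15. Without the 2 libraries farthest from the median (DHT 1 and oil 1 for Fos, DHT 1 and DHT 3 for Arc) they were 0.06 and 0.75. The value of 0.81 with Fos thus rested on DHT library 1. That with Arc fell to 0.15 when DHT library 1 alone was left out, but was 0.75 when DHT library 3 was left out with it. Npas4 had r between -0.10 and 0.36 with the other 8 genes, and Fosb between -0.39 and 0.68. Fosb with Arc went from 0.27 to -0.84 without DHT library 1.

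**Figure D4:**
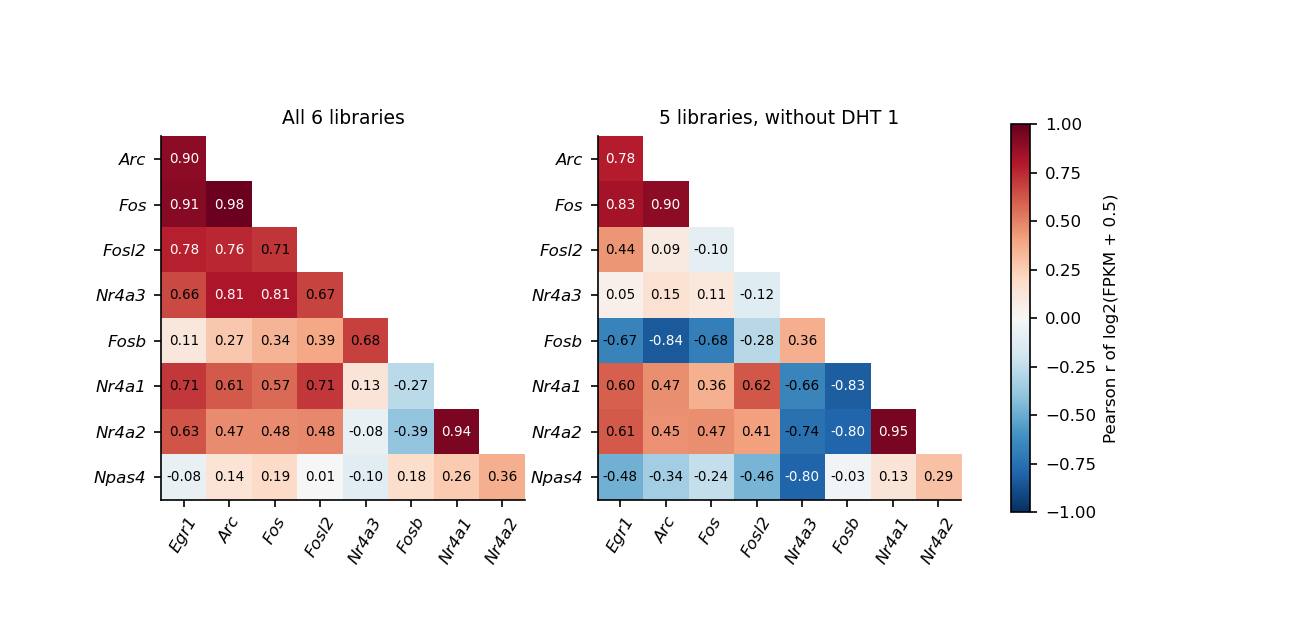
Pearson r of log2(FPKM + 0.5) for the 36 pairs, over all 6 libraries (left) and over 5 without DHT 1 (right), on a scale from -1 (blue) to 1 (red). Egr1, Arc and Fos keep r from 0.78 to 0.90 with each other on the right, and Nr4a1 with Nr4a2 0.95, while Nr4a3 with Fos is 0.11 there.

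The first-exon events list starts within each gene, and are not a direct measure of where transcription began. Whether each listed start is a true one was not tested. FPKM of events of 1 locus share reads, so they are described without a test, and these were singled out after their values were seen. Fos had its main first exon at chromosome 12, 85473890 to 85474180, with 1.72, 0.948 and 1.46 FPKM in DHT libraries and 1.24, 1.43 and 1.69 FPKM in oil libraries. The groups overlapped for that form. Another first exon began 511 bases past its end, inside the gene (85474691 to 85475186), with 2.22, 0.535 and 0.645 FPKM in DHT libraries and 0.0724, 0.493 and 0.134 FPKM in oil libraries. The high value of Fos in DHT library 1 thus lay mostly in this inner form, which took 56.3% of its first-exon signal there, 35.8% and 30.3% in the other DHT libraries, and 5.49%, 25.6% and 7.33% in the oil libraries.

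Nr4a1 had first-exon events at several starts. The first exons at its far upstream start, 12577 bases before the start whose promoter is printed above, held 3.44, 3.93 and 3.23 FPKM in DHT libraries and 2.47, 2.27 and 2.81 FPKM in oil libraries. The first exon at the printed start (chromosome 15, 101266846 to 101266971) held 3.16, 2.14 and 3.34 FPKM against 1.85, 2.17 and 1.72 FPKM. The upstream forms were higher in each DHT library than in any oil library, whereas the printed start overlapped between groups through DHT library 2. The upstream share was 43.4% to 62.1% over the 6 libraries, and both extremes were oil libraries.

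Nr4a2 divided its signal between an upstream first exon (chromosome 2, 57123829 to 57124003), at the start printed above, and one in the middle of the gene (57114718 to 57115038). The upstream exon held 0.878, 1.22 and 1.05 FPKM in DHT libraries and 0.745, 1.32 and 1.77 FPKM in oil libraries. The middle exon held 2.23, 1.89 and 2.08 FPKM against 1.86, 1.27 and 0.679 FPKM. For the middle exon the nearest values, DHT library 2 and oil library 1, lay 1.89 against 1.86 FPKM, and with centred libraries they overlapped. The upstream exon overlapped without centring. Oil library 3 was the exception in makeup, with 69.6% of its signal upstream, compared with 27.5% to 44.0% in the other libraries.

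**Figure D5:**
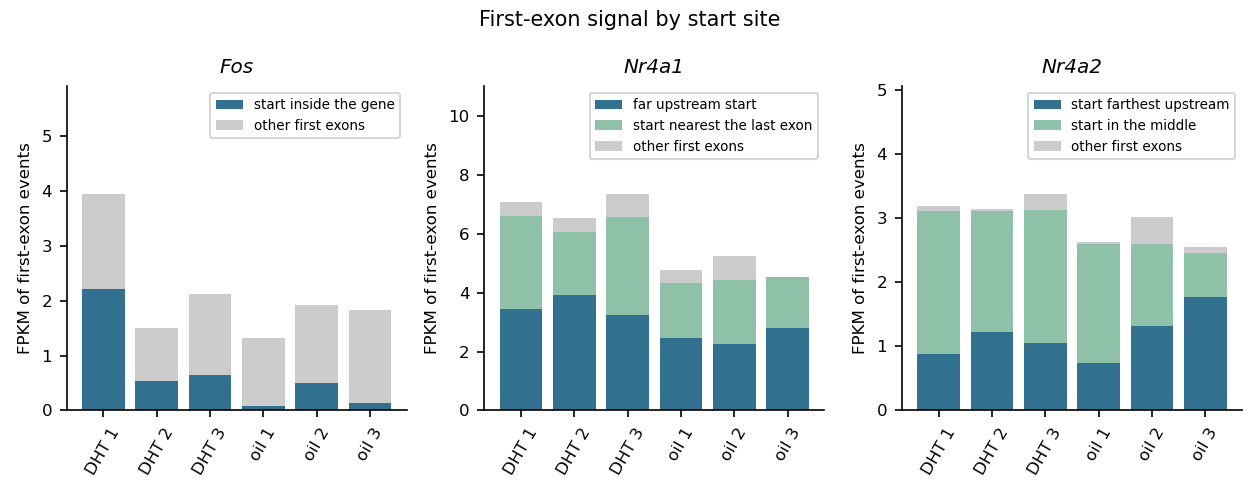
FPKM of first-exon events (vertical axis, from 0) in each library for Fos, Nr4a1 and Nr4a2, stacked by start site. The inner Fos form reaches 2.22 FPKM in DHT 1 and 0.0724 to 0.645 FPKM elsewhere; the middle start of Nr4a2 is 1.89 to 2.23 FPKM in DHT libraries and 0.679 to 1.86 FPKM in oil libraries.

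Splicing events were sparse. Npas4 was listed with and without its internal exon at chromosome 19, 4987778 to 4987887, and the form with the exon made up 67.7%, 77.8% and 100% of the signal with DHT, compared with 50.8%, 76.3% and 14.3% with oil. These shares rest on totals of 1.05 to 1.92 FPKM, and the groups overlapped. Retained-intron events were listed for Nr4a1, Nr4a2 and Npas4 and stayed at or below 0.798 FPKM. For the other 7 genes, including Fos and Arc, there were none. No circular RNA was assigned to any of the 10 genes in any of the 6 libraries, whose lists held 4510 to 5455 circular RNAs with at least 2 junction reads each. In contrast Homer1, which encodes a synaptic scaffold protein with an activity-induced short form, had circles in every library, the most abundant (chromosome 13, 93341756 to 93356079) with 108, 91 and 99 junction reads under DHT, compared with 87, 65 and 65 under oil. Per M mapped reads these were 0.609, 0.545 and 0.691 against 0.548, 0.422 and 0.416, so the groups overlapped. Homer1 had no identifier in the expression tables.

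Other genes of the response were taken from lists. Of all tested genes, 63.6% were higher in DHT, or 51.4% with centred libraries. Of 32 further rapid-response genes 18 were measured, 16 of them higher and 2 lower in DHT, or 13 and 5 with centred libraries, and 0 passed. Their median log2 fold change was 0.18 (0.12 centred). Trib1, a pseudokinase gene, measured 1.93, 1.64 and 1.79 FPKM with DHT, compared with 1.33, 1.16 and 1.45 FPKM with oil (limma adjusted p = 0.658). Its groups did not overlap, as was the case for 12% of all tested genes in that direction. Dusp6, a phosphatase gene that acts on ERK, was highest in DHT library 1 at 9.03 FPKM, with 6.58 and 6.43 FPKM in the other DHT libraries and 5.77, 5.70 and 6.35 FPKM in oil libraries. Klf10 and Errfi1 had log2 fold changes of 0.25 (SE 0.12) and 0.52 (SE 0.28). That of Errfi1 was 0.21 without oil library 2 and 0.79 without oil library 3, and that of Dusp6 went from 0.27 to 0.12 without DHT library 1.

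Of 16 slower activity-dependent genes 14 were measured, 12 higher and 2 lower (11 and 3 centred). Their median was 0.25 on the log2 scale (0.19 centred), and 0 passed. In 6 of the 14, DHT library 1 was again the highest, as in 6 of the 18 rapid-response genes and in 21.1% of all tested genes. Ptgs2, the inducible prostaglandin synthase gene, was at 2.15, 1.30 and 1.34 FPKM against 0.990, 0.780 and 1.02 FPKM (log2 fold change 0.53, SE 0.19, limma adjusted p = 0.656). Its fold change was 0.35 without DHT library 1 and 0.16 from last-exon sums. Nptx2, a secreted pentraxin gene of excitatory synapses, was at 6.12, 5.22 and 4.39 FPKM against 4.05, 3.98 and 2.71 FPKM. Bdnf, a neurotrophin gene, was at 1.93, 1.68 and 1.37 FPKM against 1.26, 1.11 and 1.30 FPKM. For these 3 genes the groups did not overlap, and for the peptide precursor gene Vgf they did (log2 fold change 0.28, SE 0.13). Of all tested genes, 12% were separated in that direction and 3.15% in the other, as was Cpeb3 in this list (log2 fold change -0.12, SE 0.096), which is named after its values were seen.

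Upstream of the immediate-early genes, 22 of 26 kinase, phosphatase and transcription factor genes were measured. Of these 15 were higher and 7 lower, or 10 and 12 with centred libraries, their median log2 fold change was 0.05 (-0.01 centred), and 0 passed. Mef2d, a calcium-regulated factor gene, measured 31.0, 29.0 and 18.1 FPKM with DHT, compared with 13.7, 14.8 and 11.8 FPKM with oil (log2 fold change 0.90, SE 0.21, limma adjusted p = 0.652). Camk4, a calcium-dependent kinase gene, was lower in DHT at 22.4, 23.0 and 11.2 FPKM against 26.8, 25.7 and 29.5 FPKM (log2 fold change -0.59, SE 0.27), and its fold change was -0.26 without DHT library 3 and -0.30 from the fullest event. The coactivator genes Mrtfb and Crebbp had log2 fold changes of 0.34 (SE 0.13) and 0.31 (SE 0.14), with 1.36 for Mrtfb from last-exon sums. Of 14 other AP-1 and CREB family genes 7 were measured, all 7 higher, or 5 with centred libraries, and 0 passed. Atf4, Atf7 and Mafg, named for their small p, were higher in every DHT library than in any oil library. Of all tested genes, which were not picked in that way, 12% were. Their log2 fold changes were 0.38 (SE 0.13), 0.57 (SE 0.21) and 0.24 (SE 0.11), and Atf2 had 0.33 (SE 0.17). The value of Atf2 was 0.17 without DHT library 1 and 0.13 from the fullest event, and that of Atf4 was 0.24 from last-exon sums or the fullest event.

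Heat shock genes were listed because handling of tissue can induce them together with immediate-early genes. Of 10 such genes 7 were measured, 5 higher and 2 lower. Their log2 fold changes had a median of 0.11 (0.05 centred), and 0 passed. Hsph1 ran from 21.1 to 25.3 FPKM with DHT and from 16.3 to 19.1 FPKM with oil (log2 fold change 0.34, SE 0.11), a direction that turned to -1.38 (log2) when last-exon sums alone were used. Dnajb1, Dnaja1 and Hspe1 had log2 fold changes of 0.20, 0.11 and 0.11, and that of Dnaja1 was -0.11 with last-exon sums. Dnajb1 was at 0.054 without oil library 2 and 0.11 without DHT library 1, and Hspe1 at 0.036 without DHT library 3 and 0.19 without DHT library 1. Hspa1a was listed at 0. The part of handling in the immediate-early values was not tested.

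Among 11359 other tested genes, those with a pattern most like the mean standardized level of the 9 genes were ranked by Pearson r over the 6 libraries, as a description. Nob1, a ribosome assembly factor gene, came first at 0.996, with 3.57 FPKM in DHT library 1 and 2.63 to 2.94 FPKM elsewhere. Nol12 (0.993), Exosc6 (0.989), Il17ra (0.986), Lsm14b (0.983), Eif4enif1 (0.980), Rhobtb2 (0.978), Ptpn1 (0.976), Siva1 (0.973) and Ssc5d (0.973) followed. Eif4enif1, which encodes a transporter of the cap-binding protein eIF4E, stood at 14.6 FPKM in DHT library 1 and at 6.76 to 9.35 FPKM in the others. With 6 points, 135 genes had an r of at least 0.9, and these profiles share the peak in DHT library 1. At the other end were Asf1a (-0.983), Tmem216 (-0.981) and Btrc (-0.975), the last with 6.49 FPKM in DHT library 1 and 11.1 to 18.0 FPKM elsewhere. Of the 9 genes themselves, Fos (0.92) and Arc (0.91) had the highest r with the mean of the other 8, and Npas4 (0.16) and Fosb (0.21) the lowest.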

How the data were processed

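Members and gene lists were chosen with earlier results of these data known. The authors deposited FPKM for 315379 first-exon, last-exon and splicing events, per the file headers, not for genes. Counts of junction reads and of linear reads per circular RNA were deposited by the authors too, with a deposited score (junction reads per giga mapped reads, rounded down, per the labels' protocols) used only to work out mapped reads. HISAT2 2.0.1, BWA, cutadapt, bcl2fastq 2.17.1.14 and the build mm9 appear in the submitters' processing notes. Assembler, FPKM tool and strandedness: not given in the sources used here, so overlapping and antisense genes cannot be told apart. Event positions of Fos begin at its GRCm38 RefSeq start, 85473890, so coordinates are treated as GRCm38.

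A gene value is the larger of the first-exon and last-exon sums of a locus in each library, added over loci with the same identifier. Of the identifiers 99.7% matched a symbol. The 11368 genes whose mean reached 0.5 FPKM were fitted on log2(FPKM + 0.5) with limma 3.58.1 (eBayes with trend, R 4.3.3), with Benjamini-Hochberg adjustment over all of them, threshold 0.05. The method was tested on simulated data. Correlations used exact permutation of libraries. Tables were handled in pandas 2.3.3 (Python 3.11.15) and figures drawn with matplotlib 3.10.9. FPKM carry no counts, so the depth behind a value is unknown and no counting interval is given. Named genes were the 10 members, the 4 genes of smallest p in each other list, the 10 most and 3 least like the members, and the 2 most abundant markers of lists that touch a result. Alternatives covered pseudocounts, filters, centring, event sums, trend and leaving out each library. 3 were added after seeing the data: centring without DHT library 1, Arc without its second locus, and correlations without DHT library 1.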

Additional observations from a re-analysis of the deposited data

How the results depend on the processing

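No immediate-early gene was called by limma under any alternative run. Their count at an unadjusted p under 0.05, 2, was 1 with centred libraries, 1 with centred libraries without DHT library 1, and 1 to 2 when 1 library was left out. Their count of higher genes, 8, ran from 6 to 9 when 1 library was left out. Directions turned for 3 of the 9: Npas4 to -0.025 (centred) and -0.11 (centred, without DHT library 1), Nr4a3 to -0.25 (centred, without DHT library 1), and, on leaving out 1 library, Npas4 between -0.19 and 0.15, Nr4a3 between -0.18 and 0.24, and Fosb between -0.26 and 0.10. Those turns came without DHT library 1 (Npas4, Nr4a3), oil library 3 (Npas4) and DHT library 3 (Fosb). Hsph1 and Dnaja1 turned to -1.38 and -0.11 with last-exon sums. The cause was not tested. Over all genes, 2 calls became 1 with a pseudocount of 0.1, 1 with a mean of at least 1 FPKM, 0 with first-exon sums, last-exon sums or the fullest event, 0 with centred libraries without DHT library 1, and 0 to 4 on leaving out 1 library. Pairs at an unadjusted p under 0.05, 4, were 2 with group means subtracted, where the smallest exact permutation p is 0.0278. The median r of 0.48 was 0.10 without DHT library 1, and 0.42 to 0.62 under the other alternatives that used Pearson's r. The median Spearman's rho was 0.31. No paired analysis was possible because the labels give the groups no shared replicate numbers, and the library numbers used here follow accession order. Depth behind FPKM is unknown, which limits what low genes such as Fosb can show.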
